A study of Homo sapiens with 6 samples.

Results

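The genes described here are 10 that restrain proliferation or are switched on as cells leave the cycle: BTG1, BTG2 and BTG3, TOB1 and TOB2, KLF2, KLF4, KLF6 and KLF10, and TXNIP. They were chosen by name, with earlier results of these data known, out of 56794 gene names in the authors' deposited table. All 10 were found there with 36 transcripts. The 3 libraries labelled CASP8AP2 Mutant came from HEK293 cells whose CASP8AP2 gene was deleted with CRISPR, and the 3 libraries labelled Parental came from HEK293 cells with the gene left in place. Both lines express luciferase. Whether the mutant line is 1 clone, and where the deletion lies, is not given in the sources used here. HEK293 is a human embryonic kidney line that carries adenovirus E1 genes. CASP8AP2, also called FLASH, serves histone message processing, and the study's title links its loss to arrest at G0/G1 and to higher recombinant protein yield. The question was whether RNA of these antiproliferative genes stood apart between the lines.

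BTG and TOB proteins share an N-terminal BTG domain that binds the CNOT7 and CNOT8 deadenylases. Through them they bring the CCR4-NOT complex to messages and speed the loss of poly(A) tails, and their overproduction slows the step from G1 into S phase. KLF proteins are transcription factors that bind GC-rich and CACCC-type sequences through C2H2 zinc fingers at their C-terminus, and several of them are immediate early genes with short-lived RNA. TXNIP is an arrestin-like protein that binds thioredoxin and lowers glucose uptake, and its transcription follows the sugar-sensing factors MondoA (MLXIP) and ChREBP (MLXIPL).

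Promoters of TXNIP, BTG1 and KLF6 are shown because TXNIP had the lowest ratio of the members, KLF6 had the highest, and TXNIP and BTG1 share a forkhead sequence. Sequences are RefSeq windows on GRCh38.p14, 5′ to 3′ along the gene, kept to the part outside every annotated exon of the gene. Capitals mark matches on either strand to the motifs searched: the forkhead sequence GTAAACA, the E box CACGTG, the carbohydrate response element as a pair of CACGAG with 5 bases between, the GC box GGGCGG, the CCAAT box of these letters, the TATA box TATAAA and the cAMP response element TGACGTCA. The TXNIP stretch is chr1:145996601-145996829 on the minus strand, the BTG1 stretch chr12:92145898-92146096 on the minus strand, and the KLF6 stretch chr10:3785282-3785459 on the minus strand.
TXNIP: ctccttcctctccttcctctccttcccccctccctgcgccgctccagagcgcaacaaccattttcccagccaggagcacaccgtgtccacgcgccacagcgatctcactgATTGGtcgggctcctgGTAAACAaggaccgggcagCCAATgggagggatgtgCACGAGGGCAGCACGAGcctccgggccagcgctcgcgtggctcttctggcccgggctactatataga
BTG1: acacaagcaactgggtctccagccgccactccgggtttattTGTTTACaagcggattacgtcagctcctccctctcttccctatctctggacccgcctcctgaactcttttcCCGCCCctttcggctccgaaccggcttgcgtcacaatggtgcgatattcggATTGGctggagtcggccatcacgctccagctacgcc
KLF6: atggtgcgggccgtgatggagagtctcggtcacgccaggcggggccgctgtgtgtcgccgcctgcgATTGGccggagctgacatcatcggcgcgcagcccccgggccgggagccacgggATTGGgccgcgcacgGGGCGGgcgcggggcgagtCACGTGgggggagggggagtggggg

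In TXNIP the carbohydrate response element began 88 bases before the RefSeq start, between a CCAAT box and the start. Of 35116 windows of 300 bases, 2 held this pair, and the other belonged to KCTD5. The search left only the bases between free and allowed no other letter in either CACGAG, the spelling found in TXNIP. Carbohydrate response elements with other letters were not searched. The count therefore covers this exact pair and does not say how common such elements are. The forkhead sequence lay 124 bases before the start in TXNIP and 209 bases before it in BTG1, and 3.42% of all windows held it. An E box lay 97 bases before the start of KLF6 and 157 bases before that of KLF4, against 7.26% of all windows. GC boxes were in 8 of the members' 11 windows, against 45% of all windows. These 8 were of BTG1, BTG2, BTG3, TOB1, TOB2, KLF2, KLF4 and KLF6. CCAAT was in 5 of the 11, of BTG1, BTG2, TOB1, KLF6 and TXNIP, against 34.6%, and TATAAA in 1, of BTG1, against 11.5%. TGACGTCA was in no member's window, against 1.85%. The 11 windows came from 9 members, and KLF10 had none, so its promoter was not searched. A match is a run of letters, and binding was not measured.

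Levels below are group means of a length-scaled abundance with the authors' added 1 taken off, summed over the transcripts of a gene, and log2 ratios set mutant over parental with 1 added to each. The table gave no value for single libraries, so no spread between replicates can be printed, and the authors' deposited p-values for single transcripts are the measure of error. Every p-value given here for a single transcript or for a gene's main transcript comes from the authors' deposited table. The labels do not say whether replicates were cultured separately, so these p-values may measure technical spread. An estimated 13300000 to 57500000 reads lay on transcripts in each mutant library, and 9190000 to 15310000 in each parental one. The mutant total rests on 1 deep library, since the other 2 held 13300000 and 15010000, within the parental range. For the members that came to an estimated 825 to 17473 reads a gene over the mutant libraries and 269 to 4941 over the parental ones. CASP8AP2 RNA itself stood at 15.7 in mutant and 15.9 in parental cells, so its level does not check the labels. All 9 genes known from HEK293 cells that were looked up were found in at least 1 group at an abundance of 1 or more, summing to 1108 in mutant and 656 in parental cells. Of these 9 genes 4 were higher and 5 lower in mutant cells, and the difference of the sums lay mostly in the neurofilament gene NEFL, at 434 against 35.7 (p of 0.0209 per the authors' deposited table). The related NEFM stood at 0.0690 against 8.63 (p of 0.00690). The keratin genes KRT8 and KRT18 had 37.3 and 51.8 in mutant cells, against 70.6 and 57.7 in parental cells (p of 0.0178 and 0.0998), and VIM, the vimentin gene, had 530 against 425. Of 9 markers of other cell types, 1 passed that level, COL1A1 of fibroblasts (5.82 in mutant and 2.17 in parental cells), and the T-cell gene CD3E was at 0 in both. Their part in the members' values was not tested.

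No member was called different. In the authors' deposited table the adjusted p-values of the 36 transcripts lay between 0.460 and 0.998, where 0.0221% of 140552 transcripts had one under 0.05. An unadjusted p under 0.05 was held by 6 of the 36 (16.7%), against 5.79% of all transcripts, and all 6 were higher in mutant cells, against 3.30% of all transcripts on the higher and 2.48% on the lower side. Among the 24 member transcripts that reached an abundance of 1 in a group it was held by 4 on the higher side, against 5.78% of such transcripts. Gene sums were higher in mutant cells for 7 members and lower for 3, where 49.4% of the 14856 genes that reached an abundance of 1 in a group were higher and 50.6% lower. Their median log2 ratio was 0.32, against -0.01 over all genes. The members and the related lists below were chosen with earlier results of these data known. Their shares and medians beside those of all genes are therefore description and no test. All 10 members passed the abundance minimum in both groups. A log2 ratio of at least 0.5 was reached by KLF6, KLF4 and BTG1, as by 11.5% of all genes, and TXNIP alone of the members lay at -0.5 or less, as did 11.3% of all genes.

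**Figure D1:**
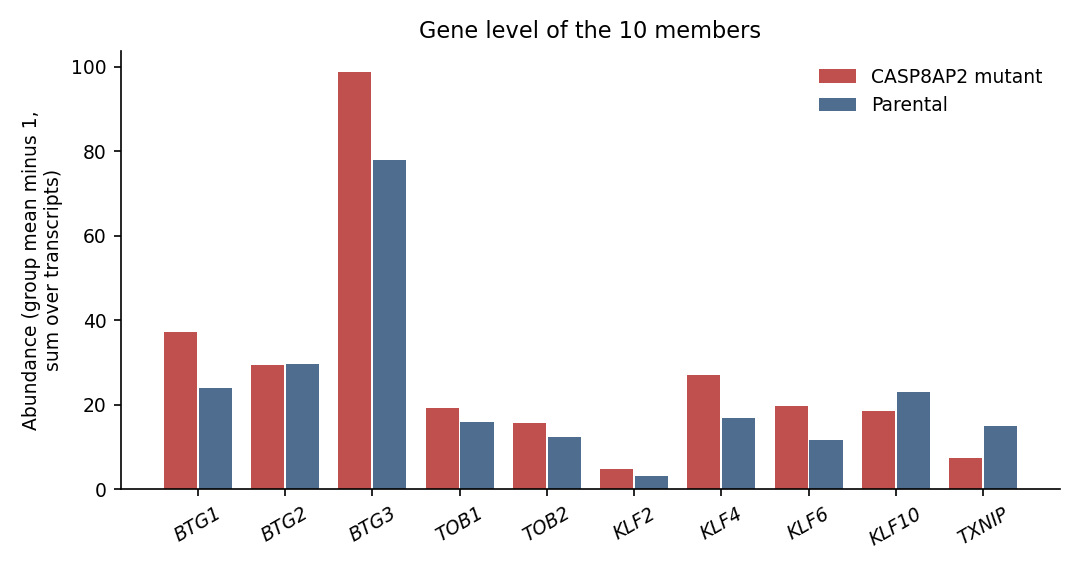
Bars give the abundance of each gene, the authors' group mean minus 1 summed over transcripts, in CASP8AP2 mutant (left, red) and parental libraries (right, blue), 3 libraries a group, with no error bars because single libraries were not given. BTG3 stands highest in both groups, at 98.9 and 77.9. The mutant bar is the lower one for TXNIP (7.43 against 15.0), KLF10 and, by little, BTG2.

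BTG1 and BTG3 had the higher mean in mutant cells and BTG2 nearly equal means, with no transcript of theirs past the adjusted threshold. BTG1, found at a translocation breakpoint in B-cell leukaemia and high in resting lymphocytes, stood at 37.2 in mutant and 24.0 in parental cells, a ratio of 1.55 and a log2 ratio of 0.61. Of all genes 7.36% lay as high or higher. Its main transcript BTG1-201, with 171 codons, carried 35.0 against 23.7, with an unadjusted p of 0.0400 and an adjusted one of 0.703 per the authors' deposited table. BTG1-202, a short form with an incomplete reading frame, had 2.20 against 0.292, on an estimated 118 and 6.6 reads. BTG1 shares 503 of its 4854 exon bases with the end of LINC01619 on the same strand (1.20 in mutant and 0.131 in parental cells), so reads there may have gone to either gene. It lies on the minus strand of chromosome 12, 92140278 to 92145897 (build hg38).

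BTG2, first described as a response gene to growth factors, stood at 29.4 in mutant and 29.7 in parental cells, a log2 ratio of -0.02. Its coding transcript BTG2-201 had 27.3 against 27.2, with a p of 0.974 per the authors' deposited table, and BTG2-202, annotated for nonsense-mediated decay, had 2.10 against 2.54. The sign of the gene's ratio changed with the setting, as it was 0.01 on BTG2-201 alone. BTG2 lies on the plus strand of chromosome 1, 203305491 to 203309602.

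BTG3, whose protein binds and restrains the activator E2F1, was the most abundant member in both lines, at 98.9 in mutant and 77.9 in parental cells, a log2 ratio of 0.34. BTG3-202, of 252 codons, carried 79.9 against 65.9 with a p of 0.599 per the authors' deposited table, and BTG3-201, of 296 codons, 7.94 against 4.64 with a p of 0.407. The retained-intron form BTG3-205 had 5.42 against 3.72. All 6 of its transcripts had the higher mean in mutant cells. The smallest p-value of the gene, 0.00731, belonged to the minor non-coding BTG3-204, at 0.831 against 0.268 on an estimated 46.8 and 6.3 reads. The antisense gene BTG3-AS1 shares 280 of 2306 exon bases with it and stood at 1.93 in mutant and 1.59 in parental cells. BTG3 lies on the minus strand of chromosome 21, 17593653 to 17612947.

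TOB1 and TOB2 encode the larger proteins of the family, whose C-terminal parts also bind poly(A)-binding protein, and both lay somewhat higher in mutant cells. TOB1 stood at 19.3 in mutant and 16.0 in parental cells, a log2 ratio of 0.26, with most of its level in TOB1-202 (17.9 against 14.9, p of 0.466 per the authors' deposited table). TOB1-201 had 0.589 against 0.236, and the non-coding TOB1-203 0.826 against 0.832. TOB2 stood at 15.6 against 12.5, a log2 ratio of 0.30. Its main transcript TOB2-201, of 344 codons, had 15.3 against 12.3, with an unadjusted p of 0.0260 and an adjusted one of 0.703, and that p was the smallest in the authors' deposited table for any member's main transcript. TOB2-202 had 0.364 against 0.222. The TOB2 difference was thus smaller in size than that of KLF4 or KLF6 while its p-value was lower. A processed copy, TOB2P1, had 0.926 in mutant and 0.289 in parental cells and may share reads with TOB2. TOB1 lies on the minus strand of chromosome 17 (50862223 to 50867978), with 281 of 2521 exon bases also in TOB1-AS1, and TOB2 on the minus strand of chromosome 22 (41433492 to 41447023).

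**Figure D2:**
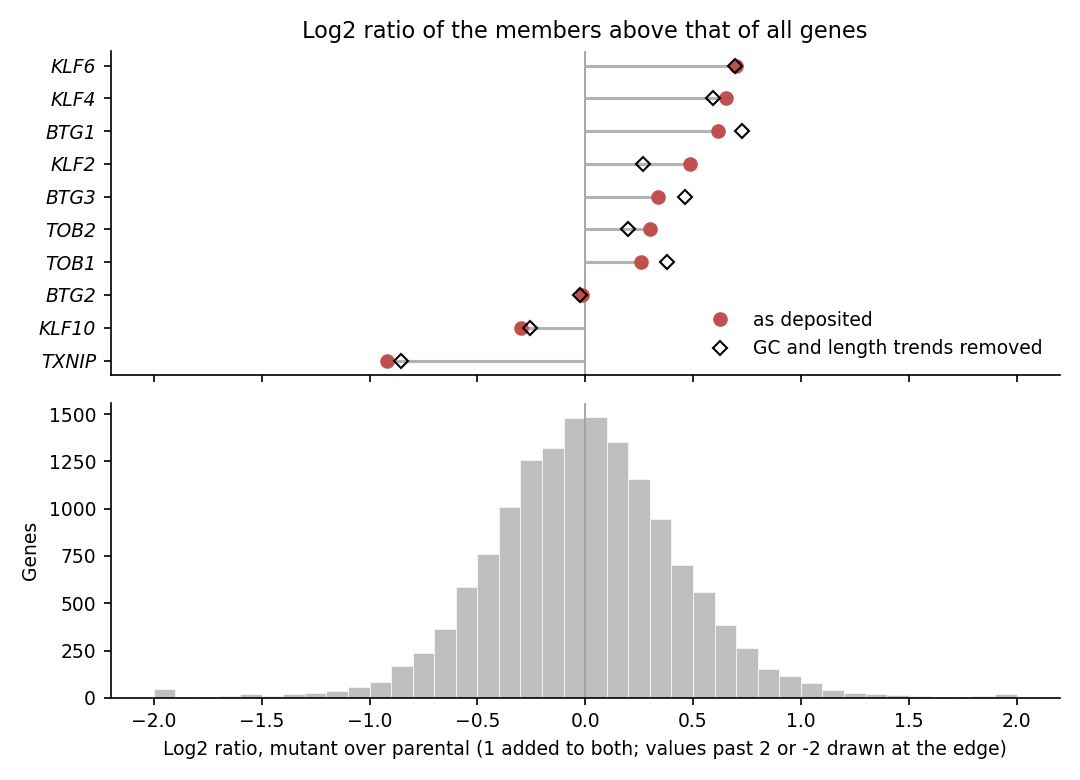
The upper panel gives each member's log2 ratio of mutant over parental, computed from gene sums of the deposited means (red circles, labelled as deposited). Open diamonds give it with the GC and length trends of all genes removed. The lower panel counts 14856 genes by the ratio of the gene sums. KLF6, KLF4 and BTG1 lie above 0.5, BTG2 lies near 0 and TXNIP lies near -0.9 by either value.

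Of the KLF members, KLF2, KLF4 and KLF6 lay higher in mutant cells and KLF10 lower, and no transcript of theirs passed the adjusted threshold. KLF6, a tumour suppressor that can induce the inhibitor gene CDKN1A, stood at 19.6 in mutant and 11.7 in parental cells, a log2 ratio of 0.70, the highest of the members. Of all genes 5.17% lay as high or higher. The difference sat in KLF6-206, which encodes 283 residues and had 11.9 against 5.54, with a p of 0.0571 per the authors' deposited table. KLF6-207, with a shorter frame of 237 codons, had 4.84 against 5.16 and a p of 0.901. KLF6-204, of 281 codons, had 1.56 against 0.730. The share of KLF6-206 in the gene was 60.9% in mutant and 47.2% in parental cells, and that of KLF6-207 24.7% and 44.0%. The 2 transcripts, of 4656 and 4537 bases, share 4531 exon bases, and the sources used here do not say how reads were divided between transcripts. No test of the shares was possible on group means. KLF6 lies on the minus strand of chromosome 10, 3775996 to 3785281.

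KLF4, a reprogramming factor that holds epithelial cells out of the cycle, stood at 27.0 in mutant and 16.8 in parental cells, a log2 ratio of 0.65. Most of its RNA in both lines was assigned to 2 transcripts annotated with a retained intron. KLF4-205 had 12.9 against 8.30 (p of 0.179) and KLF4-204 had 4.53 against 2.07 (p of 0.0487, adjusted 0.703), both p-values from the authors' deposited table. Together they made up 64.7% of the gene in mutant and 61.7% in parental cells. The full coding transcript KLF4-201, of 479 codons, had 8.16 against 3.71 with a p of 0.179. The full coding form shares 2213 exon bases with KLF4-205 and 2604 with KLF4-204. KLF4-206, with 145 codons, went the other way at 0.707 in mutant and 2.41 in parental cells, with a p of 0.144. Of its 1956 bases 1836 lie in exons of KLF4-201 as well, so the division of reads between these forms is uncertain. Retained-intron forms were often higher in mutant cells: of 3910 genes with such forms at an abundance of at least 1, 65.7% were higher, with a median log2 ratio of 0.17. For KLF4 that ratio was 0.70, and on its coding transcripts alone the ratio was 0.50. KLF4 lies on the minus strand of chromosome 9, 107484852 to 107490482.

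KLF2, which keeps T cells quiescent and is induced by flow in endothelium, was the least abundant member, at 4.71 in mutant and 3.09 in parental cells, a log2 ratio of 0.48. The full-length KLF2-201, of 355 codons, had 3.52 against 2.96 with a p of 0.570 per the authors' deposited table. Much of the difference came from the short KLF2-202, of 564 bases, at 1.19 against 0.129. All 564 of these bases lie in exons of KLF2-201 as well, so the division of reads between the forms is uncertain. The p of 0.00370 of KLF2-202 was the smallest of all 36 transcripts, its adjusted p was 0.460, and it rested on an estimated 71.4 reads over the mutant libraries and 3.2 over the parental ones. On the most abundant transcript alone the log2 ratio of KLF2 was 0.19, and with the GC and length trends of all genes removed it was 0.27. At 65.7% GC, KLF2 was the most GC-rich member, beside a median of 48.7% over all genes. It lies on the plus strand of chromosome 19, 16324817 to 16327874.

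KLF10, an early gene of TGF-beta signalling, stood at 18.5 in mutant and 23.0 in parental cells, a log2 ratio of -0.30 that 23.6% of genes matched or passed on the low side. KLF10-201, of 480 codons, carried 18.0 against 22.8 with a p of 0.587 per the authors' deposited table. The minor KLF10-202, of 469 codons, lay the other way at 0.478 against 0.202, with a p of 0.00412 and an adjusted p of 0.466. KLF10 lies on the minus strand of chromosome 8, 102648779 to 102655902.

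**Figure D3:**
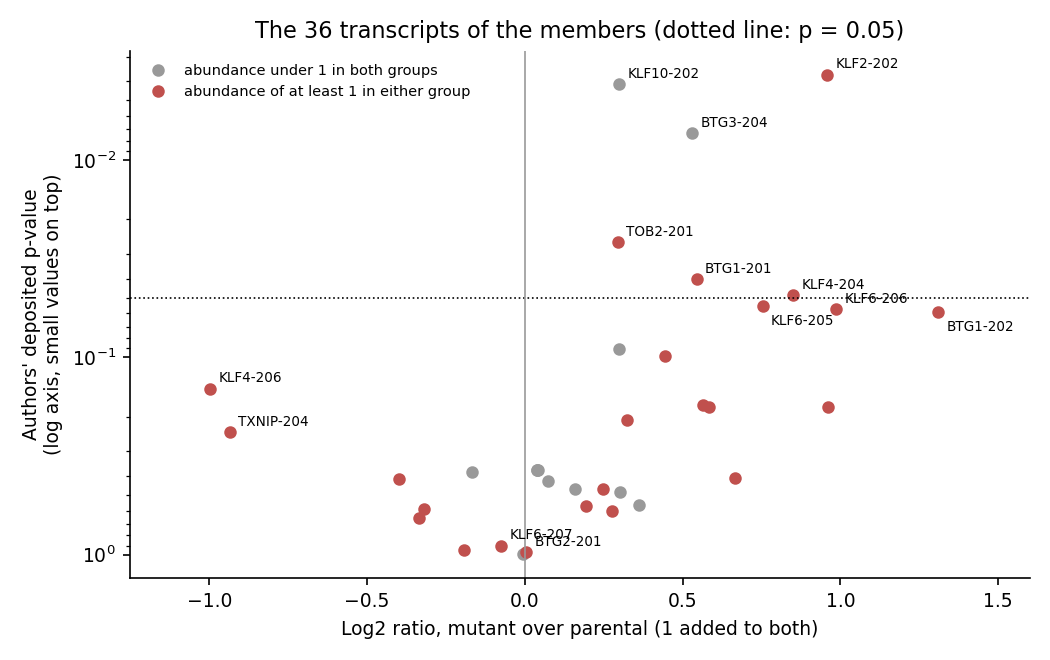
Each point is 1 of the 36 member transcripts, placed by its log2 ratio of mutant over parental and by the authors' deposited p-value on a log axis with small values on top. The 6 transcripts above the dotted line at 0.05 all lie on the higher side, and 2 of them, KLF10-202 and BTG3-204, had an abundance under 1 in both groups.

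TXNIP had the lowest ratio of the members. It stood at 7.43 in mutant and 15.0 in parental cells, a ratio of 0.497 and a log2 ratio of -0.92, and 2.01% of all genes lay as low or lower. The coding TXNIP-204, of 391 codons, carried 6.10 against 12.6, and its p of 0.240 per the authors' deposited table did not tell the lines apart. TXNIP-201, TXNIP-202 and TXNIP-203 were lower in mutant cells too, at 0.170, 0.593 and 0.567, against 0.315, 1.01 and 1.06 in parental cells. TXNIP-204 made up 82.1% of the gene in mutant and 84.0% in parental cells, and the ratios of its 4 transcripts lay between 0.485 and 0.588. The estimated reads behind the gene were 2038 over the mutant libraries and 1751 over the parental ones. TXNIP lies on the minus strand of chromosome 1, 145992435 to 145996600.

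**Figure D4:**
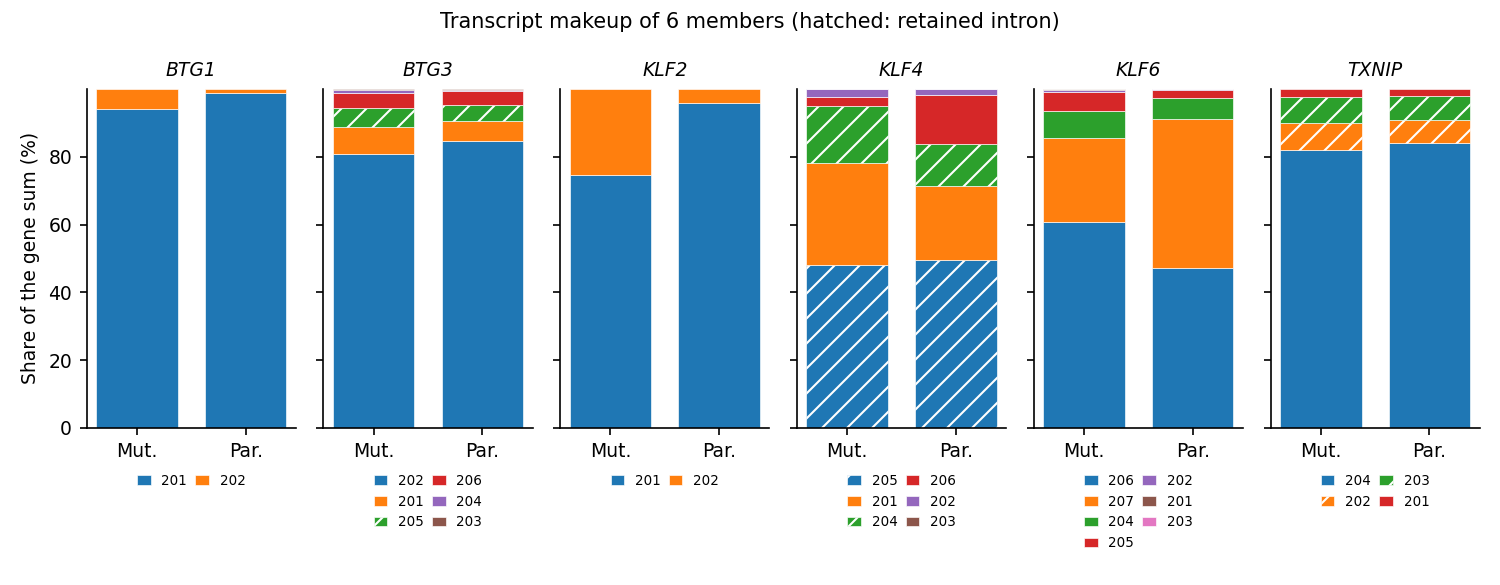
Stacked bars give the share of each transcript in the gene sum, in percent, for 6 members in mutant (left) and parental libraries (right), with retained-intron transcripts hatched and numbers below naming the transcripts. KLF6-206 holds 60.9% in mutant against 47.2% in parental cells, KLF2-202 25.3% against 4.17%, and KLF4-206 2.62% against 14.3%.

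CNOT7 and CNOT8, the deadenylases that the BTG domain binds, stood at 18.1 and 20.4 in mutant cells, against 22.4 and 28.7 in parental cells. In the authors' deposited table their main transcripts had p-values of 0.00259 and 0.0112, with adjusted p-values of 0.417 and 0.588. PRMT1, an arginine methyltransferase that BTG1 and BTG2 bind, stood at 136 against 203 (p of 0.0117, adjusted 0.592). PAN2, the catalytic subunit of the other deadenylase complex, lay higher at 71.0 against 33.2 (p of 0.0287, adjusted 0.703). PABPC1 (377 against 352) and PABPC4 (92.3 against 86.2), which coat poly(A) tails, were the other abundant genes of this list. Of 16 genes of deadenylation and their partners, 7 were higher and 9 lower, and the median log2 ratio was -0.05. An unadjusted p under 0.05 was held by 1 on the higher and 3 on the lower side, where the most abundant transcripts of all genes gave 5.17% and 8.63%, and none of the 16 had an adjusted p under 0.05.

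Family genes outside the 10 had a median near equality. BTG4, an oocyte gene, was at 0 in mutant and 0.0234 in parental cells. KLF9 had 13.6 against 13.5, KLF16 9.50 against 9.75, and KLF11, the nearest relative of KLF10, 8.51 against 11.4 with an unadjusted p of 0.0191 and an adjusted one of 0.672 per the authors' deposited table. Of 14 further BTG and KLF genes, 8 were measured at an abundance of at least 1, 3 higher and 5 lower, and the median log2 ratio was -0.02. The related SP family had a median of -0.08 over 8 measured genes, 3 higher and 5 lower, but -0.26 with the GC and length trends removed and -0.47 at an abundance minimum of 5. SP3, which competes with SP1 for GC boxes, stood at 9.75 against 14.1 (p of 0.0105, adjusted 0.582) and SP9 at 3.69 against 6.60 (p of 0.0290, adjusted 0.703), while SP1 had 17.6 against 16.7 and SP2 7.04 against 10.0.

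The 4 arrestin relatives of TXNIP measured at that level had the higher mean in mutant cells, though ARRDC2 (4.61 against 4.53) lay at a log2 ratio of 0.02, or -0.20 with the GC and length trends removed. ARRDC4, which answers the same sugar-sensing factors, stood at 17.3 in mutant and 15.6 in parental cells, and ARRDC1 at 23.5 against 13.1. TXN, which encodes the thioredoxin that TXNIP binds, had 159 against 227 with a p of 0.150 per the authors' deposited table, TXN2, of mitochondria, 40.9 against 34.2, and the reductase gene TXNRD1 24.3 against 25.5. The 9 measured arrestin and thioredoxin genes had a median log2 ratio of 0.03, 6 of them higher and 3 lower, and on protein-coding transcripts alone the median was -0.04 with 4 higher. None had a main transcript with a p under 0.05.

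Among the factors known to drive these genes, MLXIP stood at 14.4 in mutant and 10.0 in parental cells, its partner MLX at 25.6 against 20.6, and MLXIPL at 13.3 against 6.28 (p of 0.0935, 0.374 and 0.0709 by the authors' deposited table). FOXO3, a forkhead factor, had 15.9 against 16.2. FOXO6 (2.61 against 2.13) was the single gene of this list with a p under 0.05, at 0.0348 with an adjusted p of 0.703. Its log2 ratio was 0.21, or -0.02 with the GC and length trends removed. Of the 7 genes 6 were higher, with a median log2 ratio of 0.21, or 0.06 with the GC and length trends removed. The ERK5-MEF2 pathway above KLF2 and KLF4, taken with the serum response factors, had 6 of 12 genes higher and a median of -0.02. No main transcript of these genes had a p under 0.05. On protein-coding transcripts alone the median was 0.06, without MKL1 and MKL2, whose transcripts had no annotated type. SRF stood at 17.9 against 20.1, MKL1 at 15.0 against 12.1 and MEF2A at 13.8 against 19.3.

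Genes that are switched on with KLF2, KLF4, KLF6, KLF10 and BTG2 by serum had a median log2 ratio of 0.51 over 17 genes, 11 higher and 6 lower, with none called. With the GC and length trends removed the median of these 17 genes was 0.42. An unadjusted p under 0.05 was held by 2 on the higher and 2 on the lower side, where the most abundant transcripts of all genes gave 5.17% and 8.63%. FOS had 321 in mutant and 170 in parental cells (p of 0.0227 per the authors' deposited table), JUN 255 against 142 (p of 0.0132) and EGR1 325 against 229 (p of 0.368). IER3 had 7.16 against 12.6 (p of 0.0278), and ZFP36L2, which destabilises AU-rich messages, had 13.0 against 21.6 with a p of 0.00653 per the authors' deposited table. Of 8 cell cycle genes named as targets of KLF, BTG or TOB proteins, 5 were higher and 3 lower. CCND1, the cyclin D1 gene that BTG2 and TOB1 can repress, had 24.4 against 13.6 (p of 0.261), CDKN1B 16.0 against 11.3, CDKN1A, the inhibitor gene that KLF4 and KLF6 induce, 115 against 131, MYC 89.3 against 69.2 and CCNB1 50.3 against 63.1. By the authors' deposited table none of these 8 had a p under 0.05.

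**Figure D5:**
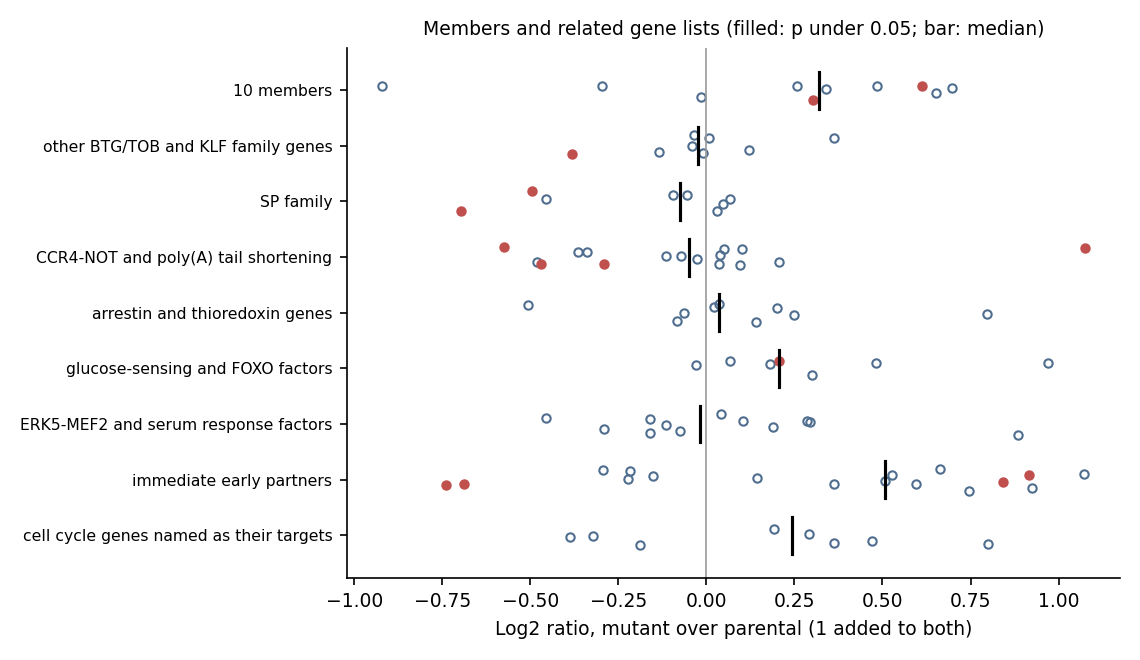
Points are genes that reached an abundance of 1 in a group, placed by the log2 ratio of mutant over parental, 1 line for each list, with filled points where the deposited p of the most abundant transcript was under 0.05 and a bar at the median. The median of the 10 members lies at 0.32. That of the immediate early genes lies at 0.51, or 0.42 with GC and length trends removed. That of the other BTG and KLF genes lies at -0.02. That of the SP family lies at -0.08, or -0.26 with GC and length trends removed.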

How the data were processed

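RNA was profiled in 3 mutant and 3 parental HEK293 samples, grouped by their titles. Per the submitters' processing notes, reads went through bcl2fastq, STAR and Partek on hg38, and per the labels' protocols libraries came from total RNA with the NEBNext Ultra kit and random primers. The sources used here do not give versions, filters, strand handling or the division of reads between transcripts. The deposited scores called LSMean are group means of abundance plus 1, per the file headers and values. The deposited signal called total counts is 3 times the sum of both means and holds no whole reads. The deposited ratio, fold change, p-value and adjusted p-value, held as scores, come from the authors, whose adjusted values matched a Benjamini-Hochberg adjustment over 140552 transcripts.

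Rows were taken by gene name, 1 was subtracted, and transcripts were summed, so gene sums carry no p-value. Transcript types, lengths and positions came from GENCODE release 29, where 99.1% of transcript names were found. What 1 read is worth in a library was read from repeated steps of abundance times length in transcripts with a p of 0.374, which reads in 1 library of 6 give. Read numbers over 3 libraries assume equal abundance within a group and cover counting error only. Calls were adjusted p-values under 0.05. GC and length trends were removed by running medians over 40 bins, averaged over 5. The adjustment and the trend removal were tested on simulated data. Python 3.11.15, pandas 2.3.3 and scipy 1.17.1 were used. Promoter windows ran from 250 bases before to 50 after the RefSeq start, and 9 of the 10 members matched, all but KLF10.

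The members and lists were chosen with earlier results of these data known. Named were all members, of their transcripts the 3 most abundant and those with a p under 0.05, and from each list the 3 most abundant genes and up to 4 with the smallest p under 0.05. BTG4, ARRDC1, ARRDC4, MLXIPL, CCND1 and CDKN1B, the other named transcripts and the 3 promoters were chosen after values were seen. One related gene list is not reported here.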

Additional observations from a re-analysis of the deposited data

How the results depend on the processing

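Gene levels were recomputed with 0.1 added in place of 1, on the most abundant transcript alone, on protein-coding transcripts alone, after scaling by the median ratio, with mitochondrial genome genes left out of the total, and with GC and length trends removed. Under these 6 settings 9 members kept the direction of their log2 ratio. BTG2, at -0.02, changed sign under 3 of them and ranged from -0.02 to 0.01. KLF2 ranged from 0.19 to 0.60, KLF6 from 0.64 to 0.99 and BTG1 from 0.54 to 0.73, and TXNIP lay at -0.85 or lower. The median over all genes moved by less than 0.1 under each of them.

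The median of the members ranged from 0.26 on the most abundant transcript alone to 0.35 without mitochondrial genes in the total, and with a minimum of 5 it was 0.30. No transcript of a member was called at an adjusted p under 0.01, with the adjusted p of the factor Type, or after a new adjustment over 1 transcript per gene, where the lowest adjusted p of a member was 0.301. The count of higher genes moved by over 1.5 times for 4 lists, since a filter changes which genes are counted: other BTG and KLF genes had 7 higher with no filter against 3, and at a minimum of 5 the SP family had 1 against 3, arrestin and thioredoxin genes 3 against 6, and cell cycle targets 3 against 5. No paired analysis was possible because only group means were analysed, and for the same reason leaving out single libraries was not run. Of the member transcripts, 4 had under 10 estimated reads over the mutant libraries and 10 over the parental ones, so their ratios are poorly fixed.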
